A study of Homo sapiens with 18 samples.

Results

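The genes described here are 9 chromatin repressors that act with the retinoblastoma protein (Rb) or with the MuvB-containing DREAM complex, taken from the 60656 gene rows of the deposited count table. They are the H3K4 demethylases KDM5A and KDM5B, the H3K4 demethylase KDM1A, the class I histone deacetylases HDAC1, HDAC2 and HDAC3, the scaffold proteins SIN3A and SIN3B, and the nuclear receptor corepressor NCOR1. The list was set by gene name, with earlier results of these data known. All 9 were found in the table, and all 9 passed the filter on low counts in every comparison.

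The study asked how the transcription of oestrogen receptor-positive breast cancer cells changes when inhibitors of the kinases CDK4 and CDK6 keep Rb in its active form. Messenger RNA was read from its 3′ end in 18 libraries of parental CAMA-1 and ZR-75-1 cells, both established oestrogen receptor-positive breast cancer lines. Each line was given DMSO as the vehicle, abemaciclib at 500 nM or palbociclib at 500 nM for 5 days, which gives 6 groups of 3 replicates. The labels give all cells as wild-type parents of their line. Each line is a single model, so a difference between the lines is one between 2 cell lines and not between 2 kinds of tumour.

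Library totals ran from 2308442 to 4146549 counts, so that 1 count stood for 0.241 to 0.433 CPM, the unit used here for a count set against the total of its library. The replicates of a group were independent cultures per the study's methods. All levels are given in CPM on 1 common scale, and all adjusted p values are Benjamini-Hochberg values of the edgeR quasi-likelihood F test over all genes tested. The share of counts from the 37 mitochondrially encoded genes was 15.7% ± 0.87 (SD, n = 3) in CAMA-1 with DMSO, against 24.8% ± 1.37 and 23.6% ± 1.15 with abemaciclib and palbociclib. In ZR-75-1 it lay at 20.2% ± 2.68, 19.5% ± 1.01 and 18.98% ± 0.70. Every comparison was also run without those genes in the totals, and the calls that moved are given beside their values. The 7 luminal markers had at least 120 counts in every library, and 8 of 9 markers of other cell types had 3 counts or fewer in every library, with COL1A2 and KRT5 at 0. COL1A1 was the exception, with 26 to 108 counts. MKI67, a marker of dividing cells, was called lower with either drug in both lines, at log2 fold changes of −3.27 and −2.40 for CAMA-1, with −5.88 and −1.36 for ZR-75-1. The libraries are bulk samples, so a lower level in every cell and a smaller share of cells that express a gene cannot be told apart.

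Rb has no enzymatic activity of its own. In its hypophosphorylated form it occupies E2F sites and recruits histone deacetylases, which strip an activating mark from histones. KDM5A, first found as an Rb-binding protein, and its relative KDM5B remove methyl groups from lysine 4 of histone H3, a mark of active promoters, whereas KDM1A acts on the lower methylation states of the same residue within the CoREST complex. In another breast cancer line, the study found KDM5A already bound at sites outside promoters that gained Rb. It proposes that Rb relieves the repression by KDM5A there. HDAC1 and HDAC2 remove acetyl groups and work inside the SIN3, NuRD and CoREST complexes. HDAC3 is the catalytic partner of NCOR1, a corepressor known for silencing oestrogen receptor targets in the presence of anti-oestrogens.

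The promoters of 4 of the members are shown first, since E2F sites are known from the promoters of the cell cycle genes that Rb represses. RefSeq windows of 300 bases on GRCh38.p14 (250 before and 50 after a start) were found for all 9 members, with 2 windows each for SIN3A and NCOR1. Each run below holds 100 bases, reads 5′ to 3′ on the strand of the gene and ends 1 base before the start, except the SIN3A run, which ends 84 bases before the second start of that gene. The SIN3A run was placed around its E2F letters. The window at the first start of SIN3A held no E2F letters and is not printed. Capitals mark letters of the motifs searched. The KDM5A run lies at chr12:389321-389420 on the minus strand, KDM5B at chr1:202808422-202808521 on the minus strand, HDAC1 at chr1:32291983-32292082 on the plus strand and SIN3A at chr15:75451774-75451873 on the minus strand.
KDM5A: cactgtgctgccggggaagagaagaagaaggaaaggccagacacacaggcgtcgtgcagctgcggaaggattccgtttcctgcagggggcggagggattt
KDM5B: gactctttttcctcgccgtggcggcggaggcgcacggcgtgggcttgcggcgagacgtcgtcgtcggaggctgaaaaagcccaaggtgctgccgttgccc
HDAC1: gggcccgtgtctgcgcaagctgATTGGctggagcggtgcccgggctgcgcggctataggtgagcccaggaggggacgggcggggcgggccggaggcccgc
SIN3A: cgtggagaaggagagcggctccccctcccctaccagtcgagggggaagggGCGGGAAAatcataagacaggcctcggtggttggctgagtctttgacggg

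The 4 spellings searched for E2F (TTTCCCGC, TTTCGCGC, TTTGCCGC and TTTGGCGC, on either strand) occurred in 1 of the 11 windows. That window belongs to SIN3A, where GCGGGAAA begins 133 bases before the second start. These letters are in 3.31% of the 35116 windows of the table. The CCAAT letters, also searched on both strands, are in 34.61% of all windows. They were found in windows of HDAC1 (78 bases before the start), SIN3A, SIN3B and NCOR1. The cell cycle homology letters TTTGAA are in 15.16% of all windows and, among the members, in the second NCOR1 window only. Against the gene spans that GENCODE gives, the starts in the SIN3B and HDAC2 windows lie 33876 and 40160 bases inside the gene, those of NCOR1 2651 and 23546 bases, and the second start of SIN3A 4152 bases. For SIN3B and HDAC2 no window lay at the 5′ end of the gene span, so a promoter there was not searched. A match describes letters only. The 2 KDM5 windows held none of the 3 motifs.

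Against DMSO, KDM5B and HDAC2 were the 2 members called in all 4 comparisons, KDM5B higher and HDAC2 lower each time. The share of all genes called the same way in all 4 was not counted. With abemaciclib in CAMA-1, 6 of 9 members were called, beside 40.3% of all genes tested. The 3 higher ones were KDM5A, KDM5B and SIN3B (20.3% of all genes were called higher), and the 3 lower ones were HDAC1, HDAC2 and SIN3A (20.1% lower). With palbociclib in CAMA-1 the same 3 members were called higher and the same 3 lower, beside 37.1% of all genes called (18.4% higher and 18.7% lower). With abemaciclib in ZR-75-1, 3 of 9 members were called, KDM5B and HDAC3 higher and HDAC2 lower, beside 36.2% of all genes (17.9% higher and 18.3% lower). With palbociclib in ZR-75-1, 6 of 9 were called, KDM5B and HDAC3 higher and HDAC1, HDAC2, SIN3A and NCOR1 lower, beside 27.9% of all genes (14.5% higher and 13.4% lower). The count of 6 with palbociclib fell to 3 without palbociclib replicate 1 in CAMA-1 and to 3 without DMSO replicate 3 in ZR-75-1. The median log2 fold change of the 9 members lay between −0.15 and −0.07 in the 4 comparisons, and that of all genes tested between −0.01 and 0.01. The 2 drugs share the DMSO libraries of a line, so their values are set side by side.

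**Figure D1:**
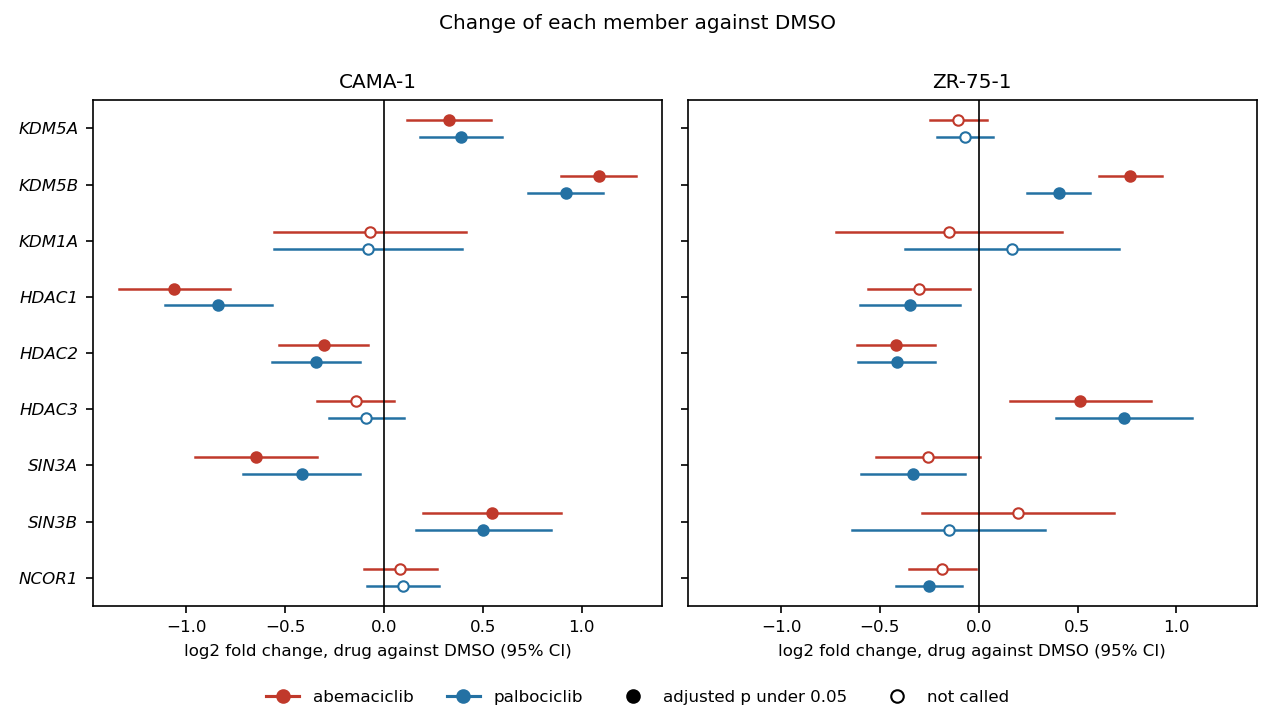
Log2 fold change of each member against DMSO in CAMA-1 (left) and ZR-75-1 (right), for abemaciclib (red) and palbociclib (blue), with bars for the 95% confidence interval of the edgeR fit over 9 libraries of a line and filled circles for an adjusted p under 0.05. KDM5B lies to the right of 0 in all 4 comparisons, HDAC2 to the left, and HDAC3 has filled circles in ZR-75-1 and open ones in CAMA-1.

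KDM5A (ENSG00000073614.13, chr12:280057-389320, minus strand on GRCh38, like the gene positions that follow) is the paralogue first isolated through its binding to Rb. In CAMA-1 it had 68.7, 77.4 and 72.2 CPM in the DMSO libraries, 89.99, 86.3 and 103 CPM with abemaciclib and 106, 99.9 and 84.4 CPM with palbociclib. All 6 drug libraries lay above the 3 DMSO libraries. The log2 fold change was 0.33 (adjusted p = 0.0108, SE 0.11) with abemaciclib and 0.39 (adjusted p = 0.00246, SE 0.10) with palbociclib, a rise of 1.26-fold and 1.31-fold. The abemaciclib call was lost without DMSO replicate 1 or abemaciclib replicate 3 (0.25 to 0.29, adjusted p = 0.055 to 0.0969). In ZR-75-1, where KDM5A was far more abundant, it had 373, 351 and 337 CPM with DMSO, 329, 338 and 325 CPM with abemaciclib and 353, 348 and 315 CPM with palbociclib. These groups overlapped. The log2 fold change was −0.10 (95% CI −0.25 to 0.04, adjusted p = 0.275) with abemaciclib and −0.07 (95% CI −0.21 to 0.07, adjusted p = 0.522) with palbociclib, so that rises as large as those in CAMA-1 lie outside both intervals. KDM5A transcripts overlap no counted neighbour in their last 1000 bases, and 201 to 1257 counts a library stand behind these values.

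KDM5B (ENSG00000117139.18, chr1:202724495-202808487, minus strand), the paralogue known to be abundant in luminal breast tumours, had the largest rise of the 9 members in each comparison other than palbociclib in ZR-75-1, where that of HDAC3 was larger. In CAMA-1 it had 67.4, 67.0 and 79.7 CPM with DMSO, 149, 168 and 152 CPM with abemaciclib and 142, 142 and 132 CPM with palbociclib. The drug libraries stood apart from the DMSO libraries, at 2.12-fold and 1.89-fold of their level, with log2 fold changes of 1.09 (adjusted p = 7.49e-13, SE 0.09) and 0.92 (adjusted p = 8.6e-11, SE 0.09). In ZR-75-1 it had 271, 223 and 302 CPM with DMSO, 454, 455 and 451 CPM with abemaciclib and 383, 347 and 327 CPM with palbociclib. The 3 groups did not overlap, in the order DMSO, palbociclib, abemaciclib. The log2 fold changes were 0.77 (adjusted p = 9.19e-12, SE 0.08) and 0.41 (adjusted p = 6.56e-05, SE 0.08), that is 1.70-fold and 1.32-fold. All 4 calls held in every fit that left out 1 library and under every other setting tried. Between 200 and 1368 counts a library stand behind KDM5B.

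**Figure D2:**
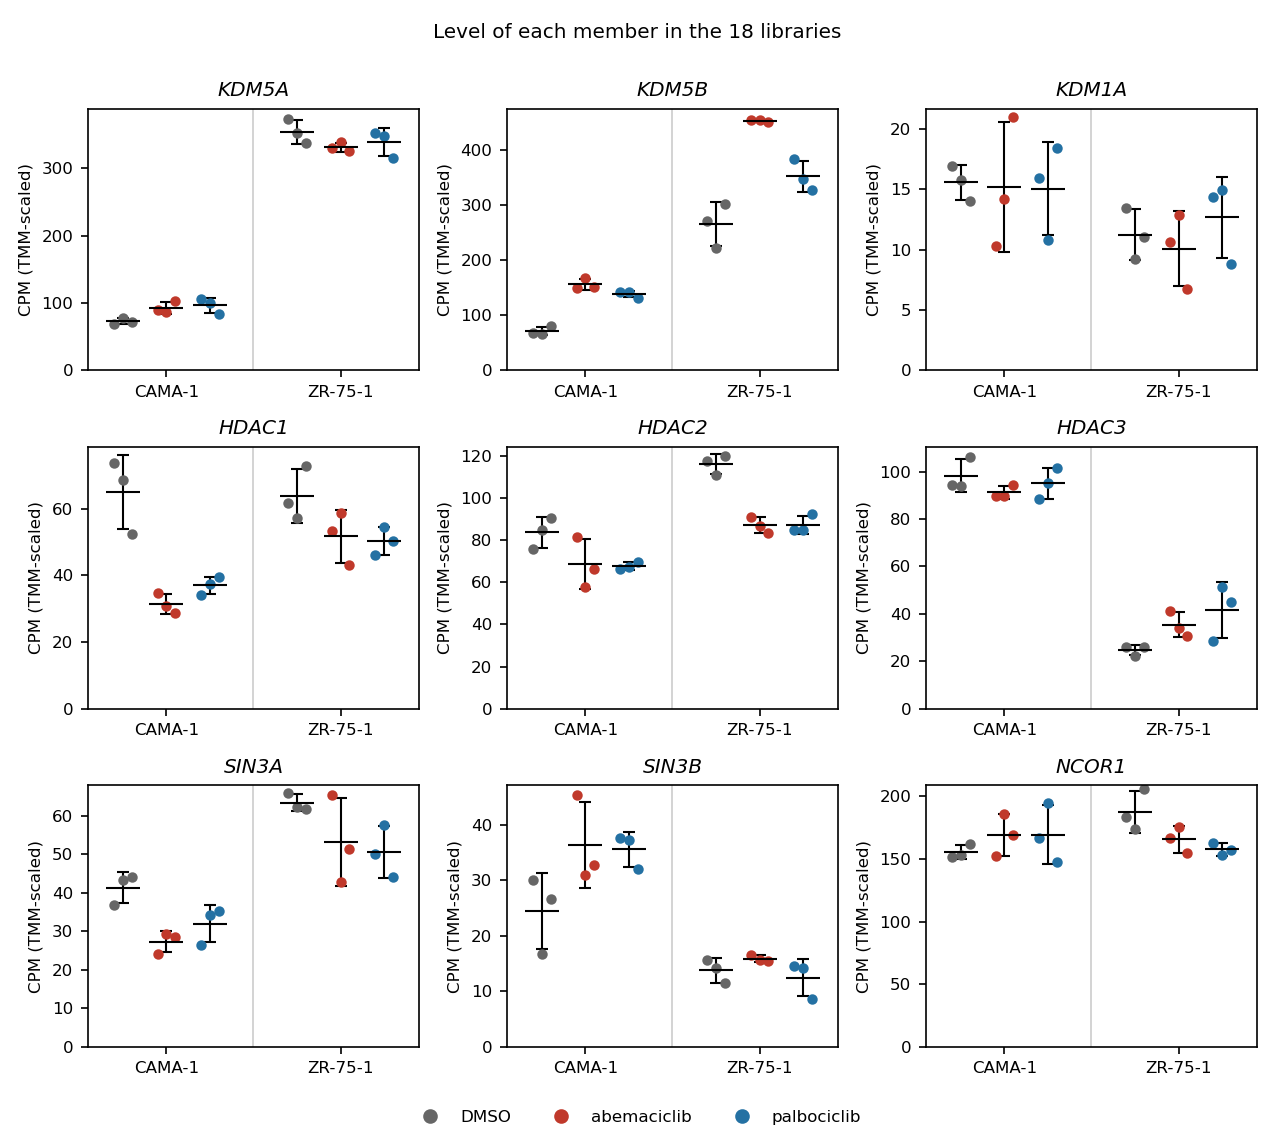
Level of each member in the 18 libraries, in CPM on the common TMM scale on an axis that starts at 0, with 1 circle for each library, coloured by treatment, and bars for the group mean and SD (n = 3). KDM5B stands above DMSO in every drug library of both lines, while KDM5A does so in CAMA-1 and overlaps DMSO in ZR-75-1.

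The 2 KDM5 paralogues can also be set against each other inside each library, which removes any scaling of the library. This ratio was chosen after the levels had been seen and is a description. Counts of KDM5B per count of KDM5A were 0.984 ± 0.120 (SD, n = 3) in CAMA-1 with DMSO, 1.69 ± 0.237 with abemaciclib and 1.44 ± 0.114 with palbociclib. In ZR-75-1 the ratio was 0.753 ± 0.133, 1.37 ± 0.0221 and 1.04 ± 0.0445. All 6 drug libraries of each line lay above its 3 DMSO libraries. The ratio is one of counts, not of transcripts per cell, so only its shift between groups can be read. SIN3B per SIN3A shifted upwards in CAMA-1 in the same way, from 0.603 ± 0.215 with DMSO to 1.36 ± 0.449 and 1.14 ± 0.260 with the drugs.

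**Figure D3:**
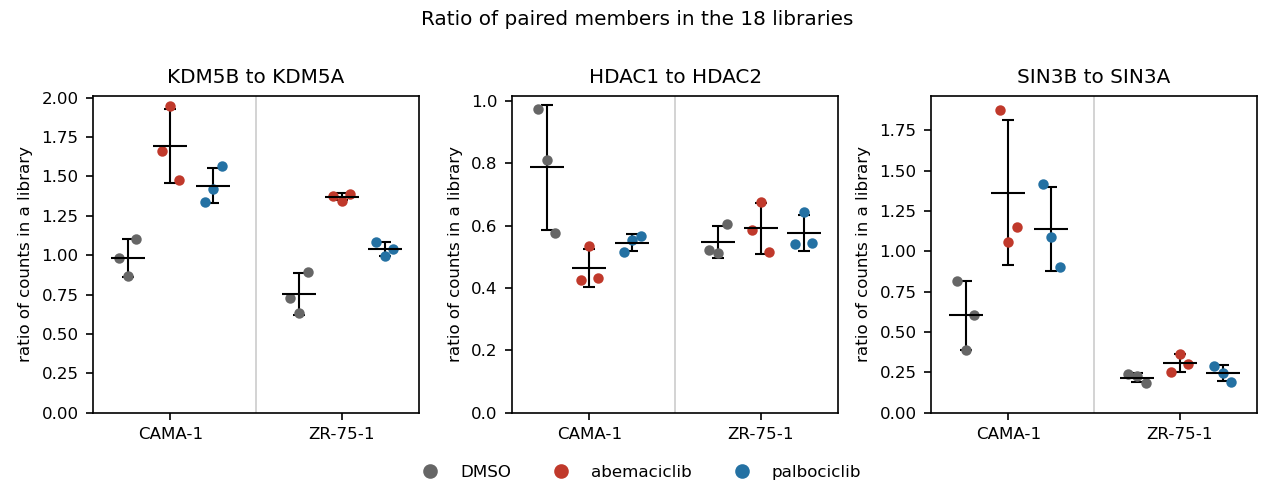
Ratio of the counts of 2 members in each of the 18 libraries (vertical axis from 0), for KDM5B to KDM5A, HDAC1 to HDAC2 and SIN3B to SIN3A, with 1 circle for each library, coloured by treatment, and bars for the group mean and SD (n = 3). The KDM5B to KDM5A ratio rises from 0.984 to 1.69 and 1.44 in CAMA-1 and from 0.753 to 1.37 and 1.04 in ZR-75-1.

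KDM1A (ENSG00000004487.17, chr1:23019443-23083689, plus strand), which takes methyl groups off H3K4 in its lower methylation states, was the most sparsely counted member, with 17 to 67 counts a library. Its level ran from 6.71 to 20.9 CPM over the 18 libraries, and the 3 treatments overlapped in both lines. The log2 fold changes against DMSO were −0.07 (95% CI −0.56 to 0.41, adjusted p = 0.843) and −0.08 (95% CI −0.56 to 0.40, adjusted p = 0.826) in CAMA-1 and −0.15 (95% CI −0.72 to 0.42, adjusted p = 0.727) and 0.17 (95% CI −0.37 to 0.71, adjusted p = 0.696) in ZR-75-1. Changes within these intervals were not detectable at this depth.

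HDAC1 (ENSG00000116478.12, chr1:32292083-32333635, plus strand) and HDAC2 (ENSG00000196591.12, chr6:113933028-114011308, minus strand) are closely related catalytic subunits of the SIN3, NuRD and CoREST complexes. HDAC1 in CAMA-1 had 73.8, 68.7 and 52.4 CPM with DMSO, 34.7, 30.9 and 28.7 CPM with abemaciclib and 34.2, 37.3 and 39.5 CPM with palbociclib. All drug libraries lay under the DMSO libraries, and HDAC1 fell 2.08-fold and 1.79-fold, with log2 fold changes of −1.06 (adjusted p = 3.69e-08, SE 0.14) and −0.84 (adjusted p = 2.22e-06, SE 0.13). Both calls held in every fit that left out 1 library. In ZR-75-1 HDAC1 had 61.6, 57.1 and 72.9 CPM with DMSO, 53.4, 58.7 and 43.0 CPM with abemaciclib and 46.0, 54.6 and 50.4 CPM with palbociclib. The abemaciclib libraries overlapped those with DMSO and the palbociclib libraries lay just under them. The log2 fold change was −0.30 (adjusted p = 0.0601, SE 0.13) with abemaciclib and −0.35 (adjusted p = 0.0331, SE 0.13) with palbociclib. The abemaciclib value passed the threshold without DMSO replicate 2 or abemaciclib replicate 2 (−0.39 to −0.38, adjusted p = 0.0339 to 0.0344). The palbociclib call was lost without DMSO replicate 1 or 3 or palbociclib replicate 1 or 3 (−0.38 to −0.25, adjusted p = 0.0537 to 0.212), and with no filter on low counts (adjusted p = 0.0615) or in DESeq2 (adjusted p = 0.076).

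HDAC2 fell in both lines. In ZR-75-1 it had 118, 111 and 120.2 CPM with DMSO, 91.2, 86.8 and 83.7 CPM with abemaciclib and 85.0, 84.8 and 92.5 CPM with palbociclib. The drug libraries lay under every DMSO library, with log2 fold changes of −0.42 (adjusted p = 0.00046, SE 0.10) and −0.42 (adjusted p = 0.000653, SE 0.10), a fall of 1.34-fold and 1.33-fold. In CAMA-1 the values were 75.7, 84.7 and 90.8 CPM with DMSO, 81.5, 57.9 and 66.5 CPM with abemaciclib and 66.2, 67.1 and 69.7 CPM with palbociclib. The abemaciclib libraries overlapped the DMSO libraries and the palbociclib libraries did not. The log2 fold change was −0.31 (adjusted p = 0.0259, SE 0.11) and −0.34 (adjusted p = 0.0117, SE 0.11). In CAMA-1 the abemaciclib call was lost without DMSO replicate 2 or 3 or abemaciclib replicate 2 or 3 (−0.30 to −0.21, adjusted p = 0.0575 to 0.168) and in DESeq2 (adjusted p = 0.052), and the palbociclib call without DMSO replicate 3 or palbociclib replicate 1 (−0.32 to −0.28, adjusted p = 0.0507 to 0.0599).

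HDAC3 (ENSG00000171720.10, chr5:141620876-141636849, minus strand), the deacetylase of the NCOR1 complex, rose in ZR-75-1 with both drugs, under which HDAC2 fell. It had 26.2, 22.1 and 25.9 CPM with DMSO, 41.1, 34.0 and 30.8 CPM with abemaciclib and 28.3, 51.2 and 45.1 CPM with palbociclib. All 6 drug libraries lay above the DMSO libraries, at 1.43-fold and 1.66-fold of their level. The log2 fold changes were 0.51 (adjusted p = 0.019, SE 0.18) and 0.74 (adjusted p = 0.000727, SE 0.17). The abemaciclib call was lost without DMSO replicate 2 or abemaciclib replicate 1 (0.39 to 0.44, adjusted p = 0.0838 to 0.144) and in DESeq2 (adjusted p = 0.0503). In CAMA-1 HDAC3 had 94.5, 94.1 and 106 CPM with DMSO, 89.7, 89.7 and 94.3 CPM with abemaciclib and 88.3, 95.3 and 101 CPM with palbociclib, with log2 fold changes of −0.14 (95% CI −0.34 to 0.05, adjusted p = 0.248) and −0.09 (95% CI −0.28 to 0.10, adjusted p = 0.5).

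SIN3A (ENSG00000169375.16, chr15:75369379-75455842, minus strand) and SIN3B (ENSG00000127511.9, chr19:16829398-16880353, plus strand) are alternative scaffolds that hold HDAC1 and HDAC2 to DNA-bound repressors, SIN3B being the one known for its part in cell cycle exit. SIN3A in CAMA-1 had 36.7, 43.2 and 44.1 CPM with DMSO, 24.1, 29.2 and 28.4 CPM with abemaciclib and 26.5, 34.1 and 35.4 CPM with palbociclib. All 6 drug libraries lay under the DMSO libraries, by 1.57-fold and 1.33-fold in the fit, with log2 fold changes of −0.65 (adjusted p = 0.000608, SE 0.15) and −0.42 (adjusted p = 0.0222, SE 0.15). The palbociclib call was lost without DMSO replicate 2 or 3 or palbociclib replicate 1 (−0.39 to −0.28, adjusted p = 0.0665 to 0.184) and in DESeq2 (adjusted p = 0.0559). In ZR-75-1 SIN3A had 65.8, 62.3 and 61.8 CPM with DMSO, 65.4, 42.7 and 51.3 CPM with abemaciclib and 49.9, 57.6 and 44.2 CPM with palbociclib. The spread of the abemaciclib libraries reached the DMSO level, and the palbociclib libraries lay under it. The log2 fold change was −0.26 (adjusted p = 0.126, SE 0.13) with abemaciclib, which passed the threshold without abemaciclib replicate 1 (−0.44, adjusted p = 0.0172). With palbociclib it was −0.33 (adjusted p = 0.0487, SE 0.13), a call at the edge of the threshold. It was lost without DMSO replicate 1, 2 or 3, abemaciclib replicate 3 or palbociclib replicate 1 or 3 (−0.35 to −0.25, adjusted p = 0.0534 to 0.221), and also with no filter on low counts (adjusted p = 0.081), in DESeq2 (adjusted p = 0.113), without the mitochondrial genes (adjusted p = 0.0569) and in 1 fit over all 18 libraries (adjusted p = 0.0637).

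SIN3B moved the other way from SIN3A in CAMA-1. It had 30.02, 16.7 and 26.7 CPM with DMSO, 45.3, 30.9 and 32.8 CPM with abemaciclib and 37.5, 37.3 and 32.0 CPM with palbociclib. The drug libraries all lay above the DMSO libraries, of which replicate 2 was the lowest. The log2 fold changes were 0.55 (adjusted p = 0.00969, SE 0.17) and 0.50 (adjusted p = 0.0171, SE 0.17), or 1.46-fold and 1.42-fold. The abemaciclib call was lost without DMSO replicate 2 or abemaciclib replicate 1 (0.35 to 0.36, adjusted p = 0.107 to 0.164), and the palbociclib call without DMSO replicate 2 or palbociclib replicate 1 or 2 (0.31 to 0.47, adjusted p = 0.0574 to 0.167). In ZR-75-1 SIN3B ran from 8.54 to 16.6 CPM over the 9 libraries, with log2 fold changes of 0.20 (95% CI −0.29 to 0.68, adjusted p = 0.567) and −0.15 (95% CI −0.64 to 0.34, adjusted p = 0.699). Between 29 and 171 counts a library stand behind this gene.

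NCOR1 (ENSG00000141027.21, chr17:16029065-16218185, minus strand), the large scaffold that brings HDAC3 to nuclear receptors, had the smallest spread of the 9 members over the 6 group means, with a root mean square of 0.087 for its centred log2 levels. In ZR-75-1 it had 183, 174 and 206 CPM with DMSO, 167, 175 and 155 CPM with abemaciclib and 163, 153 and 157 CPM with palbociclib. The palbociclib libraries lay under the DMSO libraries and the abemaciclib libraries overlapped them. The log2 fold change was −0.19 (adjusted p = 0.0816, SE 0.08) with abemaciclib, which passed the threshold without DMSO replicate 2 (−0.24, adjusted p = 0.0405), and −0.25 (adjusted p = 0.0183, SE 0.08) with palbociclib, which was lost without DMSO replicate 3 or palbociclib replicate 2 (−0.24 to −0.19, adjusted p = 0.0651 to 0.143). In CAMA-1 it ran from 147 to 194 CPM over the 9 libraries, with log2 fold changes of 0.08 (95% CI −0.10 to 0.27, adjusted p = 0.509) and 0.09 (95% CI −0.09 to 0.28, adjusted p = 0.445). The last 1000 bases of NCOR1 overlap TTC19 on the opposite strand, and whether the counting used strand was not stated. TTC19 held 4419 counts over the 18 libraries, against 9681 of NCOR1, and it was called higher in all 4 comparisons, at log2 fold changes of 0.66 and 0.58 for CAMA-1, with 0.58 and 0.32 for ZR-75-1. Its part in the NCOR1 values was not tested. The long non-coding RNAs that overlap the last 1000 bases of SIN3A and HDAC3 held 49 and 5 counts over all libraries.

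Abemaciclib and palbociclib were given at the same dose for the same time, and the 9 members were compared between them in both lines, 18 pairs in all. The same dose did not give the same fall of MKI67. MKI67 was lower with abemaciclib than with palbociclib, by −4.52 on the log2 scale (adjusted p = 4.82e-33) in ZR-75-1 and −0.87 (adjusted p = 7.45e-07) in CAMA-1. Whether the values of the members go with this difference was not tested. In ZR-75-1, KDM5B was 1.28-fold higher with abemaciclib than with palbociclib, a log2 difference of 0.36 (SE 0.08, 95% CI 0.21 to 0.52, adjusted p = 0.000569). It was the 1 of 18 pairs called, in a comparison in which 13.2% of all genes were called. All 3 abemaciclib libraries lay above all 3 palbociclib libraries. In CAMA-1 the log2 difference of KDM5B was 0.17 (95% CI −0.01 to 0.34, adjusted p = 0.434). No member was called there, by edgeR or by DESeq2, and 0 members had an unadjusted p under 0.05, beside 2.33% of all genes called. The 95% intervals of the 8 other members in ZR-75-1 reached from −0.88 to 0.84 and those of the 9 members in CAMA-1 from −0.55 to 0.50, so the data leave room for differences of that size.

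In DMSO the 2 lines differed in the level of 7 of the 9 members, beside 61.3% of all genes tested (31.5% higher in ZR-75-1 and 29.8% lower). KDM5A was 4.87-fold and KDM5B 3.69-fold higher in ZR-75-1, with log2 differences of 2.28 (adjusted p = 1.27e-32, SE 0.09) and 1.88 (adjusted p = 5.54e-27, SE 0.09). HDAC3 was 3.99-fold lower there, at −2.00 (adjusted p = 7.02e-20, SE 0.14). Smaller differences were called for SIN3A, 0.61 (adjusted p = 0.000104, SE 0.14), HDAC2, 0.47 (adjusted p = 6.45e-05, SE 0.10), SIN3B, −0.84 (adjusted p = 0.000452, SE 0.21), and NCOR1, 0.27 (adjusted p = 0.00732, SE 0.09), of which the last was lost without CAMA-1 DMSO replicate 1 or 2 or ZR-75-1 DMSO replicate 3 (0.20, adjusted p = 0.0748 to 0.0907). HDAC1 and KDM1A were not called, with log2 differences of −0.01 (95% CI −0.27 to 0.24, adjusted p = 0.928) and −0.46 (95% CI −0.99 to 0.06, adjusted p = 0.118). For KDM5A and KDM5B, all ZR-75-1 libraries lay above all CAMA-1 libraries whatever the treatment, and for HDAC3 and SIN3B all lay below. The share of all genes whose libraries part by line in this way was not counted. For SIN3B the gap was narrow, from 16.6 CPM in ZR-75-1 to 16.7 CPM in CAMA-1.

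The response to a drug was compared between the lines by subtracting the CAMA-1 change from the ZR-75-1 change on the log2 scale, in 1 fit over the 18 libraries. For abemaciclib 4 of 9 members were called, beside 18.2% of all genes, and for palbociclib 4 of 9, beside 20.3%. The abemaciclib count fell to 2 without CAMA-1 abemaciclib replicate 3 or without ZR-75-1 abemaciclib replicate 1. The KDM5A responses differed by −0.46 (adjusted p = 0.00476, SE 0.12) with abemaciclib and −0.49 (adjusted p = 0.00203, SE 0.12) with palbociclib. The first of these was lost without CAMA-1 abemaciclib replicate 3 (−0.32, adjusted p = 0.083). The HDAC3 responses differed by 0.63 (adjusted p = 0.0168, SE 0.20) and 0.79 (adjusted p = 0.0014, SE 0.19), and the first was lost without ZR-75-1 abemaciclib replicate 1 (0.56, adjusted p = 0.0616). The fall of HDAC1 with abemaciclib was smaller in ZR-75-1, by 0.73 (adjusted p = 0.00409, SE 0.19). With palbociclib the HDAC1 difference was 0.46 (adjusted p = 0.0725, SE 0.19), which passed the threshold without CAMA-1 DMSO replicate 3, CAMA-1 palbociclib replicate 3 or ZR-75-1 DMSO replicate 3 (0.54 to 0.64, adjusted p = 0.00981 to 0.048), and without the mitochondrial genes (0.51, adjusted p = 0.0459).

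The KDM5B responses to palbociclib differed by −0.54 (adjusted p = 0.000866, SE 0.13), the smaller rise being that in ZR-75-1. With abemaciclib the KDM5B difference was −0.34 (adjusted p = 0.0475, SE 0.13). This second call did not hold in 14 of the 18 leave-one-out fits, those without CAMA-1 DMSO replicate 1 or 2, CAMA-1 abemaciclib replicate 2 or 3, CAMA-1 palbociclib replicate 1, 2 or 3, ZR-75-1 DMSO replicate 1 or 3, ZR-75-1 abemaciclib replicate 1, 2 or 3 or ZR-75-1 palbociclib replicate 2 or 3 (−0.34 to −0.23, adjusted p = 0.0536 to 0.257). It was also lost with RLE scaling, upper-quartile scaling, no filter, DESeq2, no mitochondrial genes or a replicate block (adjusted p = 0.0581 to 0.0958). NCOR1 differed with palbociclib by −0.37 (adjusted p = 0.0258, SE 0.13). That call was lost in 9 of 18 fits, without CAMA-1 DMSO replicate 1 or 2, CAMA-1 abemaciclib replicate 3, CAMA-1 palbociclib replicate 1 or 2, ZR-75-1 DMSO replicate 3, ZR-75-1 abemaciclib replicate 1 or ZR-75-1 palbociclib replicate 2 or 3 (−0.35 to −0.23, adjusted p = 0.0507 to 0.237), and without the mitochondrial genes (adjusted p = 0.0534). The other members were not called in either response difference. The MKI67 responses differed between the lines as well, by −2.64 (adjusted p = 8.53e-17) with abemaciclib and 1.02 (adjusted p = 5.07e-09) with palbociclib. Whether the response differences of the members go with those of MKI67 was not tested.

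**Figure D4:**
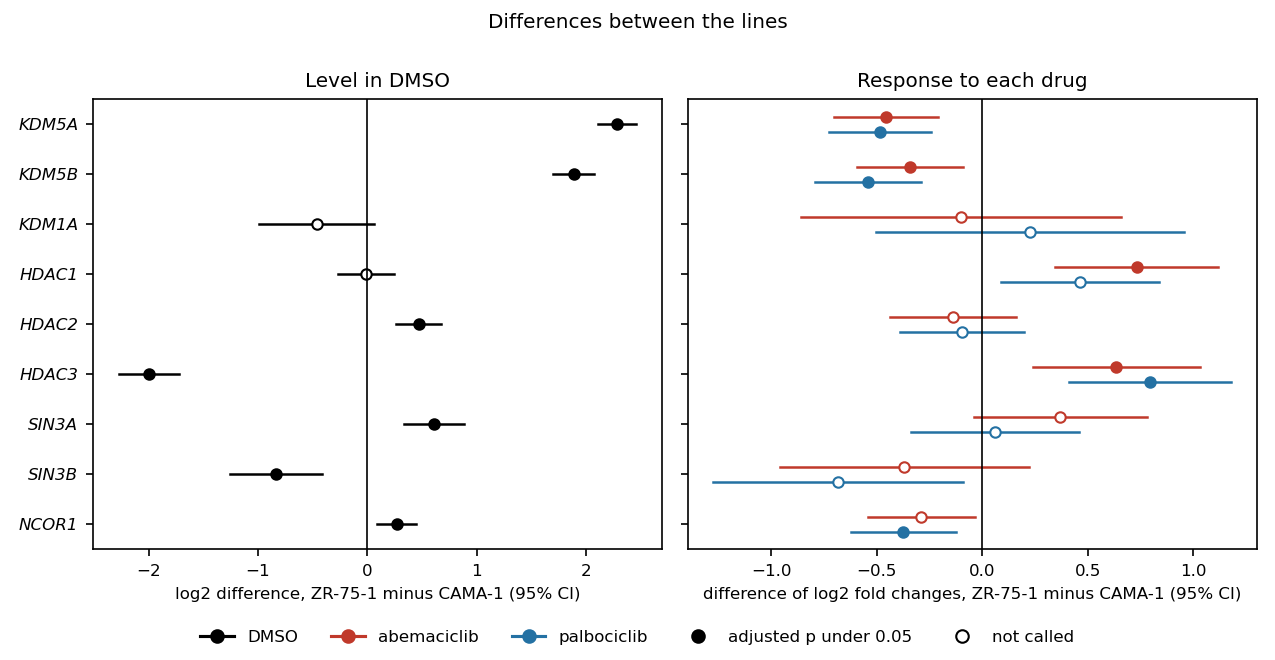
Differences between the lines for each member, ZR-75-1 minus CAMA-1, with the log2 difference in DMSO on the left and the difference of the log2 fold changes on the right (abemaciclib red, palbociclib blue), bars for 95% confidence intervals of the fit over 18 libraries and filled circles for an adjusted p under 0.05. KDM5A and KDM5B lie at 2.28 and 1.88 on the left and below 0 on the right, and HDAC3 lies at −2.00 on the left and above 0 on the right.

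Beside the members, 72 partner genes were followed, of which 68 were tested in CAMA-1 and 67 in ZR-75-1. They are other subunits of the SIN3, NuRD, CoREST and NCoR complexes and the MuvB core. They also take in other deacetylases, other H3K4 demethylases and subunits of the H3K4 methyltransferases, so the totals cover more than the complexes of the members. Abemaciclib gave 13 higher and 20 lower calls in CAMA-1, against 6 and 20 for ZR-75-1. The CAMA-1 total of 33 fell to 20 without abemaciclib replicate 3. Palbociclib gave 9 higher and 16 lower calls in CAMA-1, against 3 and 14 for ZR-75-1. The shares called, 48.5%, 36.8%, 38.8% and 25.4%, stand beside 40.3%, 37.1%, 36.2% and 27.9% of all genes in the same comparisons. Of the 67 partners tested in all 4 comparisons, 4 were called lower in all of them, namely SAP30, MORF4L1, TBL1X and HCFC1, and 0 were called higher in all of them. The share of all genes called the same way in all 4 was not counted. Both drugs share the DMSO libraries of a line, so calls can recur between them. MORF4L1 lost its CAMA-1 calls without DMSO replicate 3 or abemaciclib replicate 3 for abemaciclib, and without DMSO replicate 3 or palbociclib replicate 1 or 2 for palbociclib. Between the drugs, 0 of 68 partners were called in CAMA-1 and 10 of 67 in ZR-75-1, 6 higher and 4 lower with abemaciclib, shares of 0% and 14.9% beside 2.33% and 13.2% of all genes. The ZR-75-1 count was 4 without abemaciclib replicate 2 and 6 in DESeq2. In DMSO, 42 of 69 partners were called between the lines, 25 higher and 17 lower in ZR-75-1, a share of 60.9% beside 61.3% of all genes.

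Of the 17 other SIN3 subunits, 9 fell and 1 rose under abemaciclib in CAMA-1, and 8 fell and 1 rose under palbociclib. These are 58.8% and 52.9% called, beside 40.3% and 37.1% of all genes. In ZR-75-1, 5 fell and 3 rose under abemaciclib, and 4 fell and 1 rose under palbociclib, or 47.1% and 29.4% called beside 36.2% and 27.9% of all genes. SAP30, which links HDAC1 to SIN3, had 37.4, 40.9 and 37.5 CPM in CAMA-1 with DMSO, 15.9, 12.4 and 14.7 CPM with abemaciclib and 18.0, 15.4 and 13.6 CPM with palbociclib. It fell in every comparison, at −1.44 (adjusted p = 6.8e-09, SE 0.18) and −1.31 (adjusted p = 2.8e-08, SE 0.17) on the log2 scale for CAMA-1 and −1.05 (adjusted p = 6.04e-07, SE 0.17) and −0.69 (adjusted p = 0.000494, SE 0.16) in ZR-75-1. The histone-binding subunit RBBP7, shared by SIN3 and NuRD, fell by 0.90 and 0.86 on the log2 scale in CAMA-1. In ZR-75-1 its log2 fold change was −0.32 (adjusted p = 0.00751, SE 0.10) with abemaciclib, a call lost without abemaciclib replicate 1, and −0.13 (adjusted p = 0.354, SE 0.09) with palbociclib. The RBBP7 responses differed between the lines by 0.56 (adjusted p = 0.00263, SE 0.14) and 0.71 (adjusted p = 6.45e-05, SE 0.14).

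The 10 CoREST and CtBP partners, among which KDM1A works, gave 5 higher and 0 lower of 9 tested in CAMA-1 under abemaciclib, and 4 higher and 1 lower under palbociclib. In ZR-75-1 they gave 1 higher and 1 lower, and 0 higher and 2 lower. The shares called were 55.6% with either drug in CAMA-1, beside 40.3% and 37.1% of all genes, and 22.2% with either drug in ZR-75-1, beside 36.2% and 27.9%. ZNF217, a zinc-finger protein that binds CoREST and is amplified in breast cancer, rose by 0.78 and 0.84 on the log2 scale in CAMA-1, against 0.14 (95% CI −0.10 to 0.38, adjusted p = 0.4) and 0.04 (95% CI −0.20 to 0.28, adjusted p = 0.861) in ZR-75-1. Its responses differed between the lines by −0.66 (adjusted p = 0.000971, SE 0.15) and −0.83 (adjusted p = 2.44e-05, SE 0.15). GSE1, also a CoREST partner, rose by 0.50 and 0.42 on the log2 scale in CAMA-1. In ZR-75-1 it was called lower with palbociclib, at −0.26 (adjusted p = 0.00684, SE 0.08), and had 0.05 (95% CI −0.10 to 0.20, adjusted p = 0.64) with abemaciclib. Its response differences were −0.47 (adjusted p = 0.000736, SE 0.11) and −0.71 (adjusted p = 5.35e-07, SE 0.11).

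Among the 10 NuRD subunits abemaciclib gave 6 calls in CAMA-1 (2 higher, 4 lower) and 7 in ZR-75-1 (2 higher, 5 lower). Palbociclib gave 2 calls in either line, all lower. The abemaciclib calls are 60.0% and 70.0% of the subunits, beside 40.3% and 36.2% of all genes, and the palbociclib calls 20% in either line, beside 37.1% and 27.9%. MBD2, the subunit that reads methylated DNA, fell with abemaciclib in both lines, by 0.41 and 0.48 on the log2 scale, and had −0.19 (adjusted p = 0.128, SE 0.10) and −0.20 (adjusted p = 0.0672, SE 0.08) with palbociclib. MTA1 went the other way with abemaciclib, at 0.42 (adjusted p = 0.0402, SE 0.17) in CAMA-1 and 0.49 (adjusted p = 6.29e-05, SE 0.10) in ZR-75-1. Its CAMA-1 call was lost without DMSO replicate 3 or abemaciclib replicate 2 or 3. With palbociclib MTA1 was not called in either line. The NCoR partner TBL1X, an adaptor of the NCOR1 and HDAC3 complex, fell in all 4 comparisons, with log2 fold changes of −0.63 (adjusted p = 1.2e-06, SE 0.10), −0.54 (adjusted p = 1.64e-05, SE 0.10), −0.77 (adjusted p = 4.45e-09, SE 0.10) and −1.06 (adjusted p = 6.56e-13, SE 0.10). Its relative TBL1XR1 was called in ZR-75-1, at −0.75 (adjusted p = 4.12e-08, SE 0.11) and −0.58 (adjusted p = 8.85e-06, SE 0.10), and its responses differed by −0.61 (adjusted p = 0.000909, SE 0.14) and −0.47 (adjusted p = 0.00891, SE 0.14).

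On the side that writes H3K4 methylation, 7 of 16 methyltransferase subunits were called with abemaciclib in CAMA-1 (3 higher, 4 lower) and 3 with palbociclib (1 higher, 2 lower). In ZR-75-1, 6 and 4 were called, all lower. The shares of 43.8% and 18.8% in CAMA-1 stand beside 40.3% and 37.1% of all genes, and those of 37.5% and 25.0% in ZR-75-1 beside 36.2% and 27.9%. HCFC1, an adaptor of the SET1 complexes, fell by 0.39 and 0.44 on the log2 scale in CAMA-1, and in ZR-75-1 by 0.60 and 0.35. NCOA6 fell in ZR-75-1, at −0.67 (adjusted p = 1.12e-06, SE 0.11) and −0.85 (adjusted p = 5.14e-09, SE 0.11), and had −0.05 (95% CI −0.27 to 0.18, adjusted p = 0.77) and −0.21 (95% CI −0.43 to 0.01, adjusted p = 0.136) in CAMA-1. Of the other H3K4 demethylases, KDM5C, the X-linked relative of KDM5A, was called higher in CAMA-1, at 0.42 (adjusted p = 0.0189, SE 0.15) and 0.48 (adjusted p = 0.00758, SE 0.14). Its abemaciclib call was lost without DMSO replicate 1 or 3 or abemaciclib replicate 1 or 3, and its palbociclib call without DMSO replicate 3. In ZR-75-1 its values were −0.10 (95% CI −0.39 to 0.18, adjusted p = 0.62) and −0.17 (95% CI −0.46 to 0.11, adjusted p = 0.407). KDM2B was called lower with abemaciclib in ZR-75-1, at −0.64 (adjusted p = 0.0213, SE 0.23), a call lost without DMSO replicate 2 or abemaciclib replicate 2. Of the 3 MuvB core genes tested, 2 were called lower with either drug in CAMA-1 and 0 in ZR-75-1. Of all genes, 20.1% and 18.7% were called lower in CAMA-1 with abemaciclib and palbociclib, and 18.3% and 13.4% in ZR-75-1. A list of 3 genes is too short to set a share against these. LIN52 was at −0.71 (adjusted p = 0.00509, SE 0.21) and −1.02 (adjusted p = 0.000111, SE 0.21) in CAMA-1, and its responses differed between the lines by 0.87 (adjusted p = 0.0479, SE 0.32) and 1.02 (adjusted p = 0.0171, SE 0.32). The first of these differences lost its call in 7 of the 18 fits that left out 1 library, namely those without CAMA-1 DMSO replicate 2, CAMA-1 abemaciclib replicate 1 or 2, ZR-75-1 DMSO replicate 1 or 2 or ZR-75-1 abemaciclib replicate 1 or 2. Over all 18 fits it ran from 0.82 to 1.04. LIN54, which binds DNA for the complex, was at −0.70 (adjusted p = 0.0182, SE 0.24) and −0.58 (adjusted p = 0.0499, SE 0.23) in CAMA-1. Its abemaciclib call was lost without DMSO replicate 1 or 3 or abemaciclib replicate 3, and its palbociclib call in 5 of the 9 fits that left out 1 CAMA-1 library, namely those without DMSO replicate 1 or 3, abemaciclib replicate 2 or palbociclib replicate 1 or 2.

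Among the other deacetylases, CAMA-1 had 1 call of 7 tested under abemaciclib and 2 under palbociclib. ZR-75-1 had 0 and 1 of 6 tested, and all these calls were higher. The shares of 14.3% and 28.6% in CAMA-1 were below the 40.3% and 37.1% of all genes. Those of 0% and 16.7% in ZR-75-1 were below 36.2% and 27.9%. HDAC5 was called higher in CAMA-1, at 0.66 (adjusted p = 0.00952, SE 0.21) and 0.71 (adjusted p = 0.00506, SE 0.20). HDAC11 was called higher with palbociclib in both lines, at 0.91 (adjusted p = 0.0406, SE 0.36) in CAMA-1, where its libraries overlapped with those of DMSO, and 0.82 (adjusted p = 0.00879, SE 0.25) in ZR-75-1. The first of these calls was lost without DMSO replicate 1 or 2 or palbociclib replicate 2 or 3, and the other without DMSO replicate 3. With abemaciclib HDAC11 had 0.83 (95% CI 0.09 to 1.57, adjusted p = 0.0688) and 0.38 (95% CI −0.15 to 0.90, adjusted p = 0.279).

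**Figure D5:**
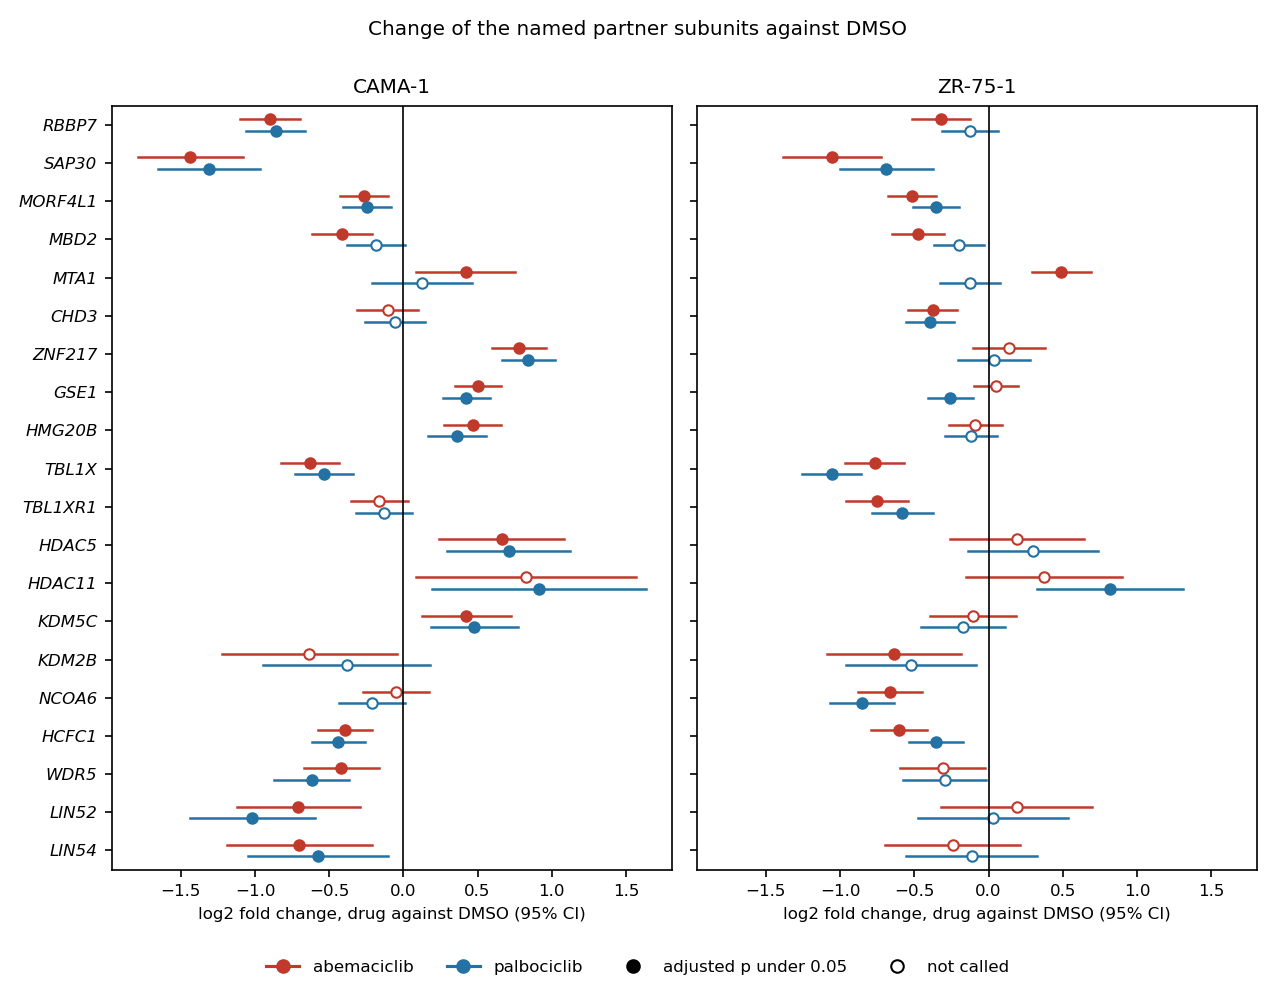
Log2 fold change against DMSO of 20 partner genes, up to 3 from each of 8 lists, in CAMA-1 (left) and ZR-75-1 (right), for abemaciclib (red) and palbociclib (blue), with bars for 95% confidence intervals and filled circles for an adjusted p under 0.05. SAP30, MORF4L1, TBL1X and HCFC1 lie left of 0 with filled circles in all 4 comparisons, and ZNF217 lies at 0.78 and 0.84 in CAMA-1.

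Over the 6 group means, the order of levels for KDM5A ran from ZR-75-1 with DMSO, palbociclib and abemaciclib, whose libraries overlapped as neighbours, down to CAMA-1 with palbociclib and abemaciclib, which also overlapped, and last CAMA-1 with DMSO, which stood apart. For KDM5B all 6 groups stood apart from their neighbours in the order ZR-75-1 with abemaciclib, palbociclib and DMSO, then CAMA-1 with abemaciclib, palbociclib and DMSO. The genes whose centred log2 levels over these 6 groups were most like those of KDM5A were GBE1, ANKRD13D and ZNF268, with root mean square differences of 0.055, 0.112 and 0.119. Those most like KDM5B were CHURC1, ESPN and DENND5B, at 0.050, 0.099 and 0.116. In a search added after the values were seen, those most like SIN3B were LATS2, RBL2 and BANP, at 0.046, 0.068 and 0.082, and those most like HDAC1 were SNHG6, TMEM18 and TBC1D10B, at 0.032, 0.072 and 0.074. Between KDM5A and KDM5B themselves this distance was 0.393. These distances describe 6 group means and were not tested.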

How the data were processed

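Messenger RNA was sequenced from the 3′ end (Lexogen QuantSeq) in 18 libraries, 3 for each of 6 groups of line and treatment. The deposited table gives raw counts for each gene, made by the authors, who trimmed adapters with BBDuk, aligned reads with STAR 2.7.5b to hg38 and counted them with featureCounts 2.0.1 on an earlier GENCODE release. The strand setting, the treatment of reads with several alignments and the use of molecular identifiers are not given in the sources used here, and the strand version of the kit is given differently by the labels and by the study's methods. Values of genes with an overlapping neighbour are therefore less certain. Gene positions come from GENCODE release 44 on GRCh38 and promoter sequences from RefSeq. Symbols were matched by gene identifier.

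Each line was fitted on its own over its 9 libraries in edgeR 4.0.16 (R 4.3.3) with filterByExpr, TMM scaling and the quasi-likelihood F test. Genes tested numbered 11053 for CAMA-1 and 11017 for ZR-75-1, with biological coefficients of variation of 8.12% and 8.30%. Response differences and DMSO levels between the lines came from 1 fit over 18 libraries (11987 genes). A gene was called at a Benjamini-Hochberg adjusted p under 0.05 over all genes tested, and only the rows described are printed. CPM levels use the TMM scale of the 18-library fit. The fits were also run on simulated data, with the same spread for every gene and changes under abemaciclib only. No result here rests on those runs. Alternatives were RLE and upper-quartile scaling, no filter, DESeq2 1.42.0 (the tool of the study), totals without mitochondrial genes, a replicate block, 1 fit over all libraries, and each library left out in turn.

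The members, the partner lists and the tests were chosen with earlier results of these data known. The partner genes named were up to 3 of each list with the smallest p in the 4 comparisons with DMSO, among those called in at least 1. One gene that met this rule is not reported here, but is counted in the partner totals. TTC19 and COL1A1 were named after their values were seen. The genes of most similar pattern had the smallest root mean square difference of centred log2 levels over the 6 groups. Library totals of 2308442 to 4146549 counts limit the precision of members with few counts, such as KDM1A.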

Additional observations from a re-analysis of the deposited data

Results flagged for a closer look

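The responses of some members differed between the lines by the interaction test in edgeR, in which the CAMA-1 change is subtracted from the ZR-75-1 change on the log2 scale. For abemaciclib the differences were −0.46 for KDM5A, −0.34 for KDM5B, 0.73 for HDAC1 and 0.63 for HDAC3. For palbociclib they were −0.49 for KDM5A, −0.54 for KDM5B, 0.79 for HDAC3 and −0.37 for NCOR1. KDM5A and HDAC3 are the members for which both drugs gave a call, with the lower KDM5A response and the higher HDAC3 response in ZR-75-1, and KDM5B did so as well, with an abemaciclib call that most fits leaving out 1 library lost. Both drugs share the DMSO libraries of a line, so the values for them are not independent.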

How the results depend on the processing

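Counts of called members and partners stayed within 1.5 times under RLE and upper-quartile scaling, no filter, DESeq2, totals without mitochondrial genes, the replicate block and 1 fit over all libraries, except the partners called between the drugs in ZR-75-1, which were 10 and became 6 in DESeq2. Leaving out 1 library at a time gave 3 to 6 members called for palbociclib in either line, 2 to 4 for the abemaciclib response difference, 20 to 33 partners for abemaciclib in CAMA-1 and 4 to 10 partners between the drugs in ZR-75-1. No scaling moved the median of all genes by over 0.1 on the log2 scale. The cause of these shifts was not tested.

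Same-numbered replicates did not deviate together (correlations of −0.0777 to 0.0122 over 18 pairs), so the numbers do not pair the libraries. With the replicate number as a block, the 9 members gave 6, 6, 3 and 6 calls against DMSO, as without it, and the call lost was the KDM5B abemaciclib response difference (−0.34, adjusted p = 0.0581).

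Signs turned for values that were not called. KDM1A between the drugs in CAMA-1 (0.01) became −0.00 with upper-quartile scaling and −0.01 with the replicate block, HDAC2 between the drugs in ZR-75-1 (−0.01) became 0.01 with RLE, 0.02 with upper-quartile scaling and 0.01 in DESeq2, and the HDAC1 difference in DMSO (−0.01) became 0.02 with upper-quartile scaling. Over the fits that left out 1 library, log2 values that crossed 0 ran as follows. In CAMA-1 against DMSO, KDM1A ran from −0.40 to 0.18 with abemaciclib and from −0.23 to 0.11 with palbociclib, and NCOR1 from −0.01 to 0.18 with palbociclib. Between the drugs in CAMA-1, KDM5A ran from −0.14 to 0.01, KDM1A from −0.32 to 0.26, HDAC2 from −0.11 to 0.13, SIN3B from −0.16 to 0.13 and NCOR1 from −0.10 to 0.10. In ZR-75-1 against DMSO, KDM1A ran from −0.35 to 0.06 with abemaciclib and SIN3B from −0.29 to 0.06 with palbociclib. Between the drugs there, KDM5A ran from −0.08 to 0.00, HDAC1 from −0.04 to 0.16, HDAC2 from −0.04 to 0.05 and SIN3A from −0.11 to 0.22. For response differences, KDM1A ran from −0.34 to 0.28 and HDAC2 from −0.17 to 0.01 with abemaciclib, and HDAC2 from −0.14 to 0.00 and SIN3A from −0.04 to 0.18 with palbociclib. The HDAC1 difference in DMSO ran from −0.20 to 0.04. Depth limits KDM1A and SIN3B most, at 17 and 29 counts in their lowest libraries.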
